A study of Homo sapiens with 5 samples.

Results

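The interferon regulatory factors (IRFs) are transcription factors that share a DNA-binding domain with conserved tryptophans and read the interferon-stimulated response element (ISRE), a repeat of the letters GAAA. The members described here are the 8 rows of the count table, out of 57221, whose gene symbol is IRF1, IRF2, IRF3, IRF4, IRF5, IRF7, IRF8 or IRF9. Bulk RNA sequencing gave their read counts in NK92MI, a human lymphoma line of natural killer (NK) type into which an IL2 gene was introduced, so that it needs no outside supply of that cytokine. The treated group, UNC1999, held 3 libraries of cells kept for 48 h with 10 µM UNC1999, an inhibitor of EZH2 and its relative EZH1, the methyltransferases of polycomb repressive complex 2. The control group, DMSO, held 2 libraries of cells kept with the solvent, also for 48 h. Nothing in the labels says that libraries of a group came from separate cultures, so the spread behind each p-value is that between these libraries and may be technical.

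As background, the members differ in what they do. IRF1 is an activator induced by interferon gamma, and IRF2 binds the same sites and often opposes it; in mice, loss of either gene impairs NK cell development. IRF3 and IRF7 are activated by the kinases TBK1 and IKK epsilon after RNA or DNA sensing and switch on type I interferon genes, and IRF5 drives inflammatory cytokine genes, mostly in myeloid cells. IRF9 is the DNA-binding subunit of ISGF3, the complex that carries the type I interferon signal. IRF4 and IRF8 are the lymphoid and myeloid members, which bind DNA weakly alone and act with partners such as PU.1 or BATF and JUN proteins.

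RefSeq windows of 250 bases before a transcription start (build GRCh38.p14, whereas the authors' build was hg19) were at hand for 5 of the 8 members: IRF1, IRF4, IRF5, IRF8 and IRF9. Those of IRF1, the member with the highest counts, and IRF4, another abundant member, are shown because they differ in a STAT binding motif, the gamma-activated site (GAS). The IRF1 window is chr5:132490774-132491023 on the minus strand and the IRF4 window is chr6:391502-391751 on the plus strand, each written 5′ to 3′ along the gene, with capitals marking a match to TTCNNNGAA.
IRF1: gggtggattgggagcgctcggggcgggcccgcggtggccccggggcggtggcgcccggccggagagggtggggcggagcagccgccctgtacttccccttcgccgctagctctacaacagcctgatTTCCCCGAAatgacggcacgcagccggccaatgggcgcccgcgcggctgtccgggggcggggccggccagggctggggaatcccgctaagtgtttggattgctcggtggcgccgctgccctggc
IRF4: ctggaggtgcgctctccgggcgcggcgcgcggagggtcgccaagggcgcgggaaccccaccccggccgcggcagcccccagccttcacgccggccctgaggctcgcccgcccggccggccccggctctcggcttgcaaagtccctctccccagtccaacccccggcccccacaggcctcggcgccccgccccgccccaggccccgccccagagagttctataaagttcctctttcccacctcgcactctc
The GAS match of IRF1 began 124 bases before the start, and the IRF4 window held none. On both strands, TTCNNNGAA was found in 6.57% and the ISRE motif (GAAA, 2 bases of any kind, GAAA) in 3.02% of 35116 such windows of all genes. Among the members, IRF9 also had a GAS match, 63 bases before its start, while the windows of IRF5 and IRF8 had none and no member's window held the ISRE motif. Both IRF8 windows and all IRF5 windows lay inside the gene as GENCODE 29 draws it. The IRF9 window ran from 24161015 to 24161264, past the GENCODE 29 gene start at 24161053. Its GAS match therefore lay before the RefSeq start but inside the gene as GENCODE 29 draws it. The windows of IRF1 and IRF4 were rich in CpG dinucleotides, with 29 and 28 against a median of 11 over all windows, while that of IRF9 had 4. These are matches of letters only, and no binding was measured.

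The libraries held 8644161 to 8718661 gene counts in UNC1999 and 8442908 to 8748106 in DMSO. A count of 0 allows up to 3 counts, which is 0.327 to 0.341 CPM in UNC1999 and 0.357 to 0.372 CPM in DMSO (CPM, the count scaled to a common library size with TMM factors); it covers counting error only, as do the binomial intervals of shares, whereas intervals of fold changes include the spread between libraries. UNC1999 replicate 2 stood apart, with a chi-square per degree of freedom of 8.09 and 9.49 against the other UNC1999 libraries, which gave 1.87 against each other. The 13 NK markers summed to 7502 to 8156 CPM in UNC1999 and 8108 to 8315 CPM in DMSO, and none was at 0; EOMES, an NK transcription factor, was lower (log2 fold change -0.74) and CD7, a surface protein, was higher (0.84). The 6 T cell markers summed to 12.3 to 15.8 CPM in UNC1999 and 19.0 to 19.98 CPM in DMSO, nearly all of it CD28 (log2 fold change -0.43, called, but lost in 8 alternatives, among them a replicate block at -0.32, no normalization factors, the DESeq2 Wald test, and leaving out either DMSO library or UNC1999 replicate 3), with CD3D, CD3G and CD4 at 0. The B cell markers summed to at most 25.6 CPM, nearly all of it PAX5 (-0.25, not called), with MS4A1 at 0, and the myeloid markers to at most 47.3 CPM, mostly ITGAM (-0.29, not called), with LYZ at 0. The part of these marker levels in the results on the IRFs was not tested. In bulk RNA, fewer cells that express a gene and less RNA per cell cannot be told apart.

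Of the 8 members, 7 passed the filter on low counts and were tested; IRF5 was not. With UNC1999, 2 of the 7 were lower (IRF8 and IRF2) and 0 were higher by edgeR's quasi-likelihood test at an adjusted p under 0.05, while of all 13075 tested genes 19.5% were lower, 15.7% higher and 35.2% called in either direction. At an unadjusted p under 0.05 in edgeR, 3 members were lower and 0 higher, against 3114 lower and 2650 higher of all 13075 genes. At an adjusted p under 0.05, the DESeq2 Wald test and limma-voom each gave 2 lower and 0 higher members. Over all genes, DESeq2 called 1908 lower and 1681 higher, and limma-voom 2535 lower and 1979 higher. Every UNC1999 library lay below both DMSO libraries for 3 of the 7 (IRF2, IRF4 and IRF8), which held for 30.4% of all tested genes; the opposite held for 0 of the 7 members and 24.2% of all tested genes. The shares of members are near those of all genes, so the counts alone do not set the family apart. Over all tested genes the fit called 2057 higher and 2546 lower, and without normalization factors, which moves the median of all genes by 0.10 on the log2 scale, 2949 higher and 1742 lower.

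**Figure D1:**
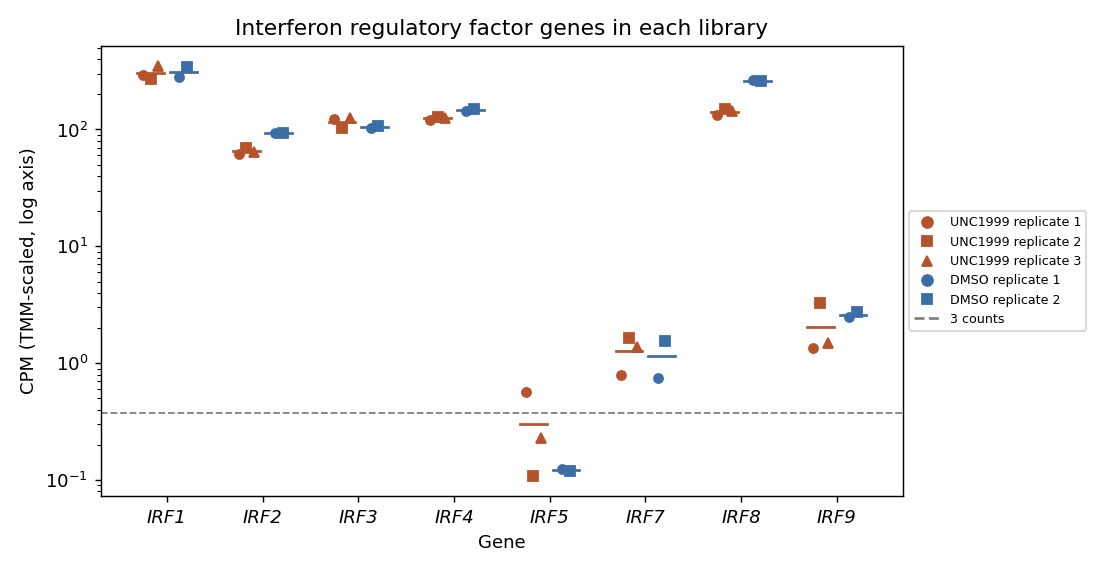
CPM of each member in each library on a log axis, with UNC1999 libraries left of DMSO libraries, horizontal lines for group means and a dashed line at the level of 3 counts in the library with the highest such level. IRF8 and IRF2 sit clearly lower in UNC1999, while IRF5, IRF7 and IRF9 lie at or under 3.27 CPM in every library.

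IRF8, which is required for NK and dendritic cell development in humans, changed most among the tested members. It had 133.0, 149.8 and 143.4 CPM in UNC1999 replicates 1, 2 and 3, against 264.5 and 259.9 CPM in DMSO replicates 1 and 2. All UNC1999 libraries lay far below both DMSO libraries, and the spread within each group was small. IRF8 averaged 142.1 ± 8.45 CPM in UNC1999 and 262.2 ± 3.21 CPM in DMSO (SD, n = 3 and n = 2). It fell 1.85-fold (log2 fold change -0.88 ± 0.11, SE), with an edgeR adjusted p of 9e-08. Only 1.28% of tested genes had a lower log2 fold change. The call held in each of the 18 alternatives, with log2 fold changes of -0.91 to -0.54, where -0.54 came with offsets for GC content and transcript length. Without UNC1999 replicate 2 the log2 fold change was -0.91. IRF8 lies on chromosome 16 from 85898803 to 85922609 (GENCODE 29, GRCh38, plus strand).

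IRF2, the antagonist of IRF1 at shared sites, was the other member that fell. It had 61.9, 70.1 and 64.2 CPM in UNC1999 replicates 1, 2 and 3, against 93.5 CPM in both DMSO libraries. No UNC1999 library came near the DMSO level. IRF2 averaged 65.4 ± 4.23 CPM in UNC1999 and 93.5 ± 0.024 CPM in DMSO (SD, n = 3 and n = 2). It fell 1.43-fold (log2 fold change -0.52 ± 0.11, SE), with an edgeR adjusted p of 0.00035. All 18 alternatives kept the call, between -0.56 (without UNC1999 replicate 2) and -0.34 (with offsets). IRF2 lies on chromosome 4 from 184387713 to 184474580 (GRCh38, minus strand).

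IRF4, which is induced by antigen receptor signals in lymphocytes, had 121.4, 128.8 and 126.1 CPM in UNC1999 replicates 1, 2 and 3, against 145.1 and 149.8 CPM in DMSO replicates 1 and 2. The groups did not overlap, yet the difference was small and did not pass the test. The log2 fold change was -0.23, with a 95% interval of -0.45 to -0.02 and an edgeR adjusted p of 0.087. Without UNC1999 replicate 2 it was -0.24 and passed (edgeR adjusted p = 0.0114), and with offsets it was -0.05 (edgeR adjusted p = 0.647). IRF4 lies on chromosome 6 from 391739 to 411447 (GRCh38, plus strand).

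IRF1 had the highest counts of the members. It had 290.4, 269.6 and 346.5 CPM in UNC1999 replicates 1, 2 and 3, against 283.1 and 343.2 CPM in DMSO replicates 1 and 2. The groups overlapped fully, and libraries within a group differed more than the group means of 302.2 CPM in UNC1999 and 313.1 CPM in DMSO. The log2 fold change of -0.05 had a 95% interval of -0.29 to 0.18 (edgeR adjusted p = 0.768), which leaves out changes as large as those of IRF8 or IRF2. Its sign changed with the scaling, being 0.05 without normalization factors and 0.02 with upper-quartile factors, and with offsets it was 0.22 and passed the test (edgeR adjusted p = 0.0412); with offsets and a replicate block it was 0.12 and did not (edgeR adjusted p = 0.357). IRF1 lies on chromosome 5 from 132481609 to 132490798 (GRCh38, minus strand), where C5orf56, an antisense noncoding gene, shares 22.0% of the IRF1 exon bases. AC116366.3, also on the opposite strand, shares 6.01%. No source used here gives the strand setting of the counting, so reads of the shared bases are uncertain. C5orf56 had 400, 409 and 470 counts in UNC1999 and 361 and 423 counts in DMSO, with a log2 fold change of 0.0046, or 0.29 with offsets.

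IRF3, the kinase-activated factor of the early antiviral response, had 123.4, 103.3 and 124.3 CPM in UNC1999 replicates 1, 2 and 3, against 103.8 and 107.7 CPM in DMSO replicates 1 and 2. UNC1999 replicate 2 was the lowest library of all, and the other UNC1999 libraries were the highest. The log2 fold change was 0.15, with a 95% interval of -0.08 to 0.37 and an edgeR adjusted p of 0.333. Without UNC1999 replicate 2 it was 0.24 and passed the test (edgeR adjusted p = 0.0149), so this library decides the call. With offsets it was 0.09. IRF3 lies on chromosome 19 from 49659569 to 49665875 (GRCh38, minus strand), and 19.4% of its exon bases are shared with BCL2L12 on the opposite strand, which had 814, 748 and 921 counts in UNC1999 and 643 and 734 counts in DMSO (log2 fold change 0.15, edgeR adjusted p = 0.334).

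The other members had few reads. IRF7, the interferon-inducible partner of IRF3, had 7, 15 and 12 counts in UNC1999 replicates 1, 2 and 3, against 6 and 13 counts in DMSO replicates 1 and 2. Its log2 fold change of 0.13 had a 95% interval of -0.79 to 1.06 (edgeR adjusted p = 0.849), so changes across that range are compatible with these counts. IRF9, the DNA-binding subunit of ISGF3, had 12, 30 and 13 counts in UNC1999, against 20 and 23 counts in DMSO, with UNC1999 replicate 2 above both DMSO libraries and the other UNC1999 libraries below them. Its log2 fold change was -0.35, with a 95% interval of -1.05 to 0.36 (edgeR adjusted p = 0.468), and without UNC1999 replicate 2 it was -0.86 (edgeR adjusted p = 0.0573). The IRF9 level is uncertain: on chromosome 14 another gene of the same strand, AL136295.5, shares 48.4% of the IRF9 exon bases in GENCODE 29, and how reads of both genes were counted is not known here. RNF31, the neighbouring gene that AL136295.5 also spans, was named after its values were seen and had 1.94 CPM in UNC1999 and 1.77 CPM in DMSO. The part of this overlap in the counts was not tested. IRF5 had 5, 1 and 2 counts in UNC1999 and 1 and 1 counts in DMSO, so nearly all libraries were under 3 counts and no fold was computed. IRF7 lies on chromosome 11 from 612553 to 615999 (minus strand), IRF9 on chromosome 14 from 24161053 to 24166565 and IRF5 on chromosome 7 from 128937612 to 128950035 (both plus strand, GRCh38).

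**Figure D2:**
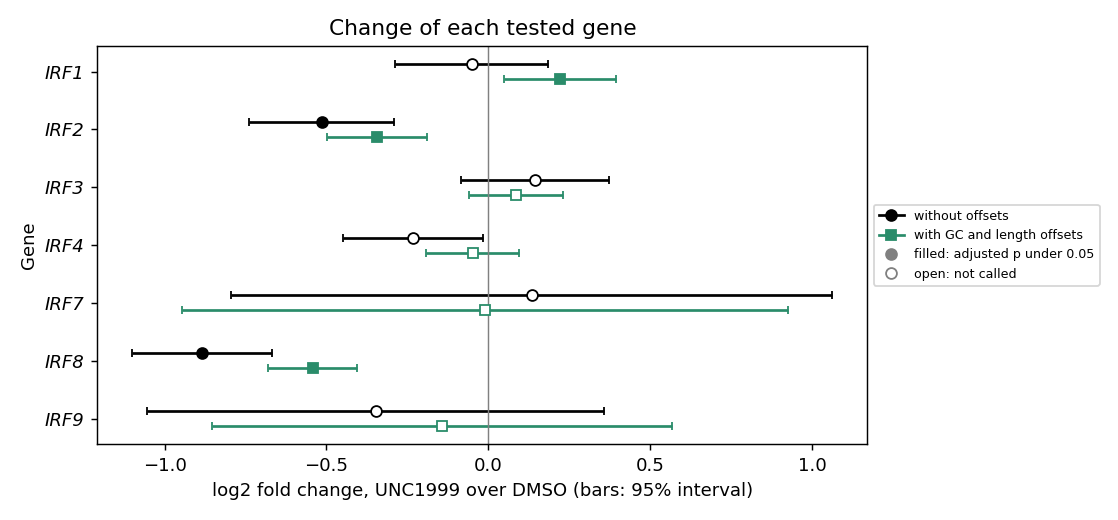
Log2 fold change of each tested member, UNC1999 over DMSO, with 95% intervals; circles are the fit without offsets and squares the fit with GC and length offsets, filled where the adjusted p is under 0.05. IRF8 and IRF2 are filled in both fits, IRF1 only with offsets (0.22), and the intervals of IRF7 and IRF9 are wide.

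Fold changes in these libraries followed the GC content of transcripts, so each tested member was set beside genes like it. Tested genes within 2 percentage points of the GC content of IRF8 (52.0%) had a median log2 fold change of -0.33 (1421 genes), those near IRF1 (53.2%) had -0.28 (1396 genes) and those near IRF4 (47.1%) had -0.29 (1615 genes). IRF8 lay well below its neighbours in GC content, IRF4 close to them and IRF1 above them. For IRF2 (45.4%) the median was -0.17 (1701 genes), above the value of IRF2, and for IRF3 (61.5%) it was 0.09 (1045 genes), close to that of IRF3. With offsets that remove both trends, 2 of the 7 members were lower (IRF8 at -0.54 ± 0.07 and IRF2 at -0.34 ± 0.08, SE) and 1 was higher (IRF1 at 0.22 ± 0.09), while 18.8% of 11017 tested genes were lower and 14.6% higher. The median log2 fold change of the 7 members was -0.05 with offsets and -0.23 without, against -0.0021 and -0.01 over all genes tested in each fit.

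Within a library, the make-up of the family counts does not depend on scaling between libraries. The shares are not corrected for GC content, in which the members differ. Tested genes of like GC content had a median log2 fold change of 0.09 near IRF3, -0.28 near IRF1 and -0.33 near IRF8. The part of this trend in the shares was not tested. IRF8 made up 18.2%, 20.6% and 17.8% of the counts of the 8 genes in UNC1999 replicates 1, 2 and 3, against 29.6% and 27.1% in DMSO replicates 1 and 2. The exact binomial 95% intervals of these shares ran from 16.9% to 21.6% over the UNC1999 libraries and from 26.1% to 30.7% over the DMSO libraries, so they did not meet. IRF1 made up 39.6%, 37.1% and 42.9% in UNC1999, against 31.7% and 35.8% in DMSO, and IRF3 made up 16.8%, 14.2% and 15.4% in UNC1999, against 11.6% and 11.2% in DMSO. Shares add up to the whole, so a lower share of one member raises the others. IRF4 kept a like share in both groups, with 15.6% to 17.7% in UNC1999 and 15.6% to 16.2% in DMSO. IRF5, IRF7 and IRF9 each made up less than 0.5% in every library.

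**Figure D3:**
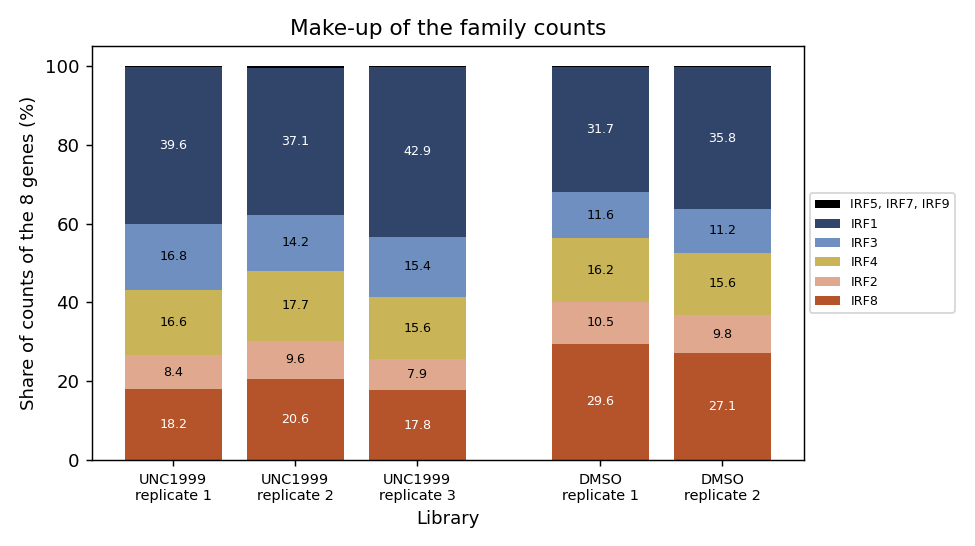
Share of each gene in the summed counts of the 8 members, in percent, as stacked bars for each library, UNC1999 left and DMSO right. The IRF8 segment at the base spans 17.8% to 20.6% in UNC1999 and 27.1% to 29.6% in DMSO, and IRF5, IRF7 and IRF9 form the thin black cap.

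Ratios of counts between members show the same libraries in another way and are given without a test, since the pairs were chosen after the values were seen. Like the shares, they are not corrected for GC content. The ratio of IRF1 to its antagonist IRF2 was 4.69, 3.85 and 5.40 in UNC1999 replicates 1, 2 and 3, against 3.03 and 3.67 in DMSO replicates 1 and 2. The groups did not overlap, but UNC1999 replicate 2 was close to DMSO replicate 2. The ratio of IRF4 to IRF8, the members that share partners, was 0.913, 0.860 and 0.879 in UNC1999, against 0.549 and 0.576 in DMSO, a gap many times the spread within either group. The ratio of IRF1 to IRF8 was 2.18, 1.80 and 2.42 in UNC1999, against 1.07 and 1.32 in DMSO. IRF1 had the higher count in every library of both groups, by a larger ratio in each UNC1999 library than in either DMSO library.

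Levels of different genes were compared per length, as counts per kilobase of the longest coding transcript scaled to the same sum over annotated genes in every library. In UNC1999 the order was IRF1 (224.0 ± 25.6), IRF3 (178.3 ± 14.7), IRF8 (124.6 ± 9.31), IRF2 (75.5 ± 6.35), IRF4 (62.5 ± 2.88), IRF9 (2.96 ± 1.63), IRF7 (1.64 ± 0.58) and IRF5 (0.27 ± 0.21, SD, n = 3). From IRF1 to IRF4 no neighbours in that order overlapped between libraries, while IRF9 and IRF7 did. In DMSO the order was IRF1 (214.0 ± 26.9), IRF8 (211.8 ± 4.74), IRF3 (148.7 ± 2.40), IRF2 (99.4 ± 1.03), IRF4 (67.7 ± 0.83), IRF9 (3.47 ± 0.20), IRF7 (1.36 ± 0.66) and IRF5 (0.0996 ± 0.0041, SD, n = 2). IRF1 and IRF8 overlapped in DMSO and could not be ordered there. IRF8 thus stood level with IRF1 and above IRF3 in DMSO but below both in UNC1999. These levels are not corrected for GC content, and with offsets the log2 fold change of IRF8 was -0.54 instead of -0.88. The order was not examined with offsets. IRF4, above IRF2 by CPM in each group, came below it per length because its transcript of 5331 bases is longer than the 2303 bases of IRF2.

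The tested genes whose centred log2 CPM over the 5 libraries lay closest to the called members, among 9307 genes whose average log2 CPM reached 3, were found by root-mean-square distance. For IRF2 they were HN1L (distance 0.0157 log2; 149.8 CPM in UNC1999 and 212.3 CPM in DMSO) and SRRD (0.0168; 50.5 CPM in UNC1999 and 71.8 CPM in DMSO, with a call lost with offsets). For IRF8 they were GABARAPL1, an autophagosome protein gene (0.0306; 25.6 CPM in UNC1999 and 48.3 CPM in DMSO), and the noncoding RP11-205M5.3 (0.0313; 52.4 CPM in UNC1999 and 96.7 CPM in DMSO). With 5 libraries in 2 groups, such likeness mostly reflects the same group difference.

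Genes that act before, with and after the IRFs were taken as 5 lists of 102 genes, of which 84 were tested. Of the 84, 16 were higher, 13 lower and 55 not called, while of all tested genes 15.7% were higher and 19.5% lower. The pooled shares are near those of all genes, so the counts alone do not set the lists apart. Their median log2 fold change was 0.07 against -0.01 over all tested genes. The count of higher genes was 4 without DMSO replicate 1, 9 without DMSO replicate 2, 10 without UNC1999 replicate 3 and 26 without UNC1999 replicate 2, and that of lower genes was 7 and 8 without DMSO replicates 1 and 2.

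Among nucleic acid sensors and their adaptors, which lead to IRF3, IRF5 and IRF7, 7 of 15 tested genes were higher and 2 lower. With offsets, 3 and 2 of 14 were. Over all tested genes the shares were 15.7% higher and 19.5% lower, or 14.6% and 18.8% with offsets. The median of the list was 0.29, or 0.16 with offsets. The count of higher genes in this list moved with the libraries used. It was 2 without UNC1999 replicate 3, 4 without UNC1999 replicate 1, 8 without UNC1999 replicate 2 and 3 with a replicate block. Over all tested genes the counts in these fits were 1821, 1751, 2862 and 1886, against 2057 in the main fit. The count of the list also fell without either DMSO library, where 1 DMSO library is left. TRAF3, an adaptor needed for IRF3 activation, fell to 103.8, 104.9 and 102.9 CPM in UNC1999, against 195.9 and 178.6 CPM in DMSO (log2 fold change -0.85, edgeR adjusted p = 1.72e-07). MB21D1, which encodes the DNA sensor cGAS, fell to 38.5, 46.2 and 37.4 CPM in UNC1999, against 71.0 and 72.4 CPM in DMSO (-0.82, edgeR adjusted p = 1.53e-06). MB21D1 had no matched GC content or length and was not tested with offsets. The genes lower with offsets were TRAF3 (-0.79) and MAVS (-0.17, edgeR adjusted p = 0.038). MAVS, named after its values were seen, was not called without offsets (-0.24, edgeR adjusted p = 0.0727). DDX58, the RNA sensor RIG-I, was higher, at 13.7, 15.7 and 12.9 CPM in UNC1999 and 9.19 and 9.87 CPM in DMSO (0.56, edgeR adjusted p = 0.0071), a call lost with offsets (0.28) and without DMSO replicate 1 (edgeR adjusted p = 0.0947). TLR4, TLR7 and TLR8 had 0 counts in every library.

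Of 13 genes for kinases, ligases and helpers that act on the IRFs, 3 were higher and 2 lower. With offsets 2 and 0 were, also 0 lower at an unadjusted p in edgeR. All tested genes were 15.7% higher and 19.5% lower (14.6% and 18.8% with offsets). The median of the list was 0.22, or 0.05 with offsets. Without UNC1999 replicate 2, 6 were higher, and without UNC1999 replicate 1 or either DMSO library 0 were lower in edgeR. TBK1, the kinase of IRF3 and IRF7, rose to 29.5, 31.8 and 27.4 CPM in UNC1999, against 19.99 and 17.6 CPM in DMSO (log2 fold change 0.66, with offsets 0.36). DDX3X, an RNA helicase that assists TBK1 and IKK epsilon, rose to 105.6, 117.9 and 118.4 CPM in UNC1999, against 46.8 and 55.5 CPM in DMSO (1.15, with offsets 0.89). Both were higher in all 3 UNC1999 libraries than in either DMSO library. TRIM21, a ubiquitin ligase of IRF proteins, had -0.34, a call lost in 10 of its alternatives, among them offsets (0.03), no normalization factors (-0.24) and a replicate block (-0.32).

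Of 18 tested interferon receptor, JAK and STAT genes, 4 were higher and 3 lower (2 and 1 with offsets). The shares of all tested genes were 15.7% and 19.5% (14.6% and 18.8% with offsets). The median of the list was 0.02, or 0.06 with offsets. Without DMSO replicate 1, edgeR called 0 higher and 2 lower. IFNAR2, a chain of the type I interferon receptor, fell to 13.4, 16.1 and 12.7 CPM in UNC1999, against 25.0 and 23.2 CPM in DMSO (log2 fold change -0.77, edgeR adjusted p = 5.95e-05, with offsets -0.54). USP18, an interferon-induced brake on that receptor, was lower, with a log2 fold change of -0.61 (-0.25 in the fit with offsets, not called). JAK2, a kinase of the interferon gamma receptor, was higher by 0.92, a call lost with offsets (0.53) and without DMSO replicate 1 (edgeR adjusted p = 0.123). STAT2, a subunit of ISGF3 beside IRF9, was named after its values were seen; it had 33.5 ± 0.591 CPM in UNC1999 and 36.8 ± 0.593 CPM in DMSO (SD, n = 3 and n = 2) and was not called. IFNGR2, a chain of the interferon gamma receptor, was listed at 0 in every library.

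Of 14 tested partners and cofactors, 5 were lower and 0 higher in edgeR (4 and 0 with offsets). Among all tested genes 19.5% were lower and 15.7% higher (18.8% and 14.6% with offsets). At an unadjusted p under 0.05 in edgeR, 6 of the list were lower and 1 higher. Its median was -0.19, or -0.11 with offsets. The count of lower genes was 1 without DMSO replicate 1, 2 without DMSO replicate 2, 3 without UNC1999 replicate 1 and 2 without normalization factors, and 3 were higher without UNC1999 replicate 2. IRF2BP2, a corepressor that binds IRF2, fell to 80.2, 93.4 and 93.6 CPM in UNC1999, against 131.9 and 126.6 CPM in DMSO (log2 fold change -0.54, edgeR adjusted p = 0.00022, with offsets -0.27). CREBBP, a coactivator acetyltransferase, had -0.39, a call that ended when DMSO replicate 1 was left out (edgeR adjusted p = 0.172), and IKZF1, a lymphoid zinc finger factor, had -0.35, a call lost with offsets (-0.14), without normalization factors (-0.25) and when either DMSO library or UNC1999 replicate 1 was left out. Among the partners of IRF4 and IRF8, SPI1, which encodes PU.1, was listed at 0 in every library. As IFNGR2 and HLA-E were listed at 0 too, this is not read as no expression. BATF had 58.0 CPM in UNC1999 and 58.6 CPM in DMSO. JUNB had 145.3 CPM in UNC1999 and 128.9 CPM in DMSO, and neither was called. These partners were named after their values were seen.

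Among 33 genes known as IRF targets, 24 were tested. Of the 24, 2 were higher and 1 lower (4 and 4 with offsets), against 15.7% and 19.5% of all tested genes (14.6% and 18.8% with offsets). The median of the list was 0.03, or 0.07 with offsets. Without UNC1999 replicate 2, 4 were higher and 2 lower; 1 was higher without UNC1999 replicate 3 or either DMSO library, and 2 were lower without DMSO replicate 1. TNFSF10, the death ligand TRAIL, rose to 13.2, 14.3 and 12.9 CPM in UNC1999, against 4.35 and 8.09 CPM in DMSO (log2 fold change 1.11, edgeR adjusted p = 3.33e-05, with offsets 0.87). MX1, an antiviral GTPase gene, fell to 28.6, 28.9 and 27.5 CPM in UNC1999, against 43.2 and 41.1 CPM in DMSO (-0.57, edgeR adjusted p = 0.00029, with offsets -0.26), a call lost with offsets and a replicate block together (-0.25, edgeR adjusted p = 0.096). GBP1, an interferon-gamma-induced GTPase gene, was higher by 0.34, a call lost with a replicate block (0.25, edgeR adjusted p = 0.164), with offsets and the block together (0.16), and when either DMSO library or UNC1999 replicate 3 was left out. PSMB8, PSMB9, TAP1 and HLA-E were listed at 0 in every library. HLA-E is a gene of nearly all nucleated cells, so these zeros, and the others reported here, are not read as no expression.

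**Figure D4:**
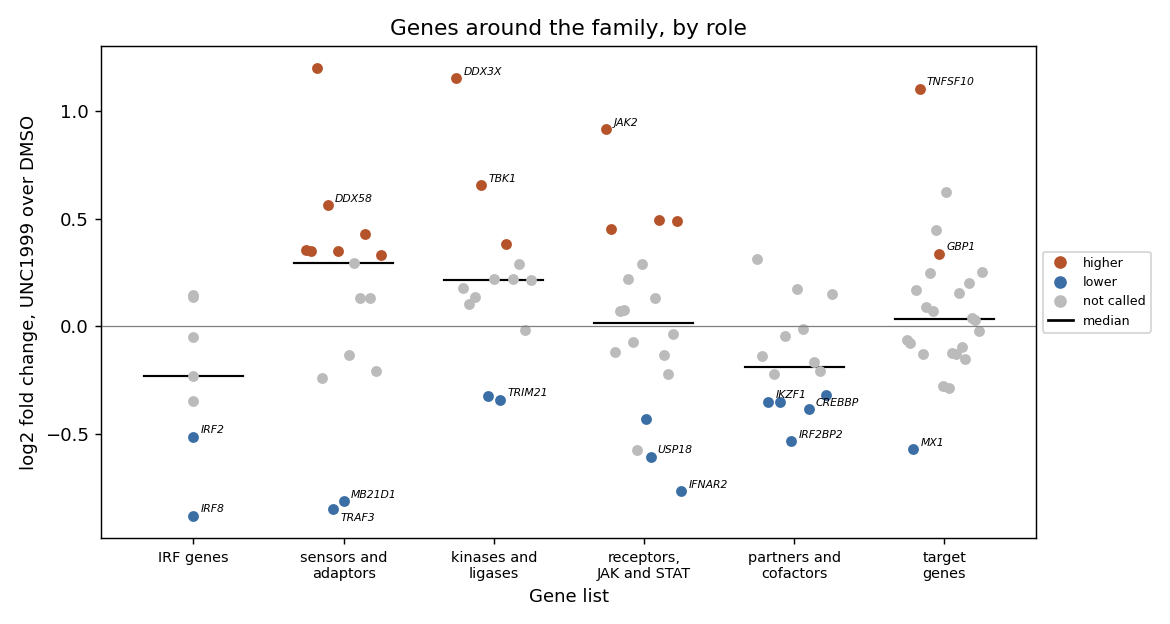
Log2 fold change, UNC1999 over DMSO, of each tested gene, for the IRF genes and 5 lists by role; colours mark genes called higher, called lower and not called at an adjusted p of 0.05, and black lines are medians. Medians run from -0.23 for the IRF genes to 0.29 for sensors and adaptors (-0.05 and 0.16 in the fit with offsets, not drawn), and the target genes gather around 0.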

How the data were processed

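The deposited table holds raw counts, 57221 lines named by gene symbol for 5 libraries. Per the submitters' processing notes, build hg19 was used with HTSeq 0.13.5, STAR 2.7.9, edgeR 3.34.0 and fastp, in roles not stated; annotation, strand setting and RNA selection were not found in any source used here. Per the labels' protocols, total RNA came from a Trizol extraction and an NEB Ultra kit made the libraries. Columns were matched to samples by name, and none was left unused.

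The main test, on the 13075 genes kept by filterByExpr, set UNC1999 against DMSO by quasi-likelihood in edgeR 4.0.16 under R 4.3.3 (TMM, estimateDisp, glmQLFit, glmQLFTest, Benjamini-Hochberg over all 13075 genes, threshold 0.05). CPM is TMM-scaled; log2 CPM for distances uses a prior count of 2. Standard errors are the fold change over the square root of F. No list was tested as a set. Some genes are counted in the lists but not reported by name here. The steps were tested on simulated data.

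Positions, GC content and transcript length came from GENCODE 29 (GRCh38, not the authors' hg19), matched by symbol for 11017 tested rows (84.3%); promoter windows came from RefSeq (GRCh38.p14). The offsets are spline curves (df 6 in GC content and df 4 in log length) fitted to how far each library lay from the average over libraries, so they can also remove true changes that follow GC content. Other alternatives were DESeq2 1.42.0 size factors, upper-quartile factors or none, a filter that was stricter (mean count 50, with 1 CPM in 2 libraries) or absent, a replicate block, robust dispersion, each library left out, a threshold of 0.01, the DESeq2 Wald test, limma-voom (limma 3.58.1), annotated genes only, and offsets with a replicate block.

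The members and lists were chosen with earlier results of these data known. Named list genes are, per list, the 3 with the lowest p among those called; if all 3 had the same sign, the last gave way to the first of opposite sign, and a list without calls is represented by its most abundant tested gene. Others are said to be named after their values were seen. The 2 nearest genes are given for each called member.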

Additional observations from a re-analysis of the deposited data

How the results depend on the processing

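IRF8 and IRF2 kept their direction and call in all 18 alternatives. The number of members called higher was 0, but 1 with offsets (IRF1) and 0 to 1 over the fits without 1 library (IRF3, without UNC1999 replicate 2); 2 to 3 were called lower. IRF1 changed sign in 6 alternatives: 0.0499 without normalization factors, 0.0172 with upper-quartile factors, 0.22 with offsets, 0.12 with offsets and a replicate block, and -0.19 to 0.0907 over the fits without 1 library, where it was 0.03 without UNC1999 replicate 2 and 0.0907 without DMSO replicate 2. IRF7 had -0.29 to 0.75 without 1 library (-0.09 without UNC1999 replicate 2, -0.29 without DMSO replicate 1) and -0.0094 with offsets. IRF9 had 0.0407 with offsets and a replicate block, and TRIM21 had 0.0266 with offsets and 0.0311 with offsets and the block. With no filter, the stricter filter, DESeq2 or limma-voom, no call of a fitted member changed. The stricter filter gave no value for IRF7 and IRF9, and the DESeq2 Wald test gave none for IRF7.

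Of the pathway genes, 16 were higher and 13 lower; 4 to 26 were higher and 7 to 17 lower over the fits without 1 library, 9 were higher at a threshold of 0.01, 7 higher with offsets and a replicate block, and 8 lower without normalization factors. Over all genes (2057 higher and 2546 lower), the counts were 1158 and 1367 without DMSO replicate 1, 1309 and 1667 without DMSO replicate 2, and 1202 and 1683 with offsets and a replicate block. Fits without a DMSO library assume that the one left varies like the UNC1999 libraries. The causes were not tested.

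Replicate numbers 1 and 2 are shared by both groups, but the labels do not say that they mark a shared culture. Deviations from the group means correlated over genes at 0.07 for number 1 and 0.04 for number 2. With 2 DMSO libraries the deviations in that group mirror each other, so the correlations cannot decide whether a culture was shared. With a replicate block 0 members were higher and 2 lower (IRF8 at -0.89, IRF2 at -0.50, IRF1 at -0.16), with 11 pathway genes higher and 12 lower. IRF5, IRF7 and IRF9 had 30 counts or fewer in every library, so their changes are poorly measured. The cause of their low counts was not tested.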
